A study of Mus musculus with 6 samples.

Results

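The genes described here are the chaperones of the cytosol and of mitochondria, with 2 factors of the heat shock response. They comprise 36 listed genes, of which 34 were measured, by 87 probe sets, among 18193 genes and 45037 probe sets in all. A probe set counted as a member's when the platform annotation named that gene alone, and each gene was followed by the member probe set with the highest mean over the arrays. No probe set named only for Hsf1 or only for Hsp90ab1 was found in the annotation used, so these 2 genes are not analysed here. Transcripts were measured in oviducts of MF1 mice, an outbred stock, at embryonic day 2.5. There were 3 Wt1 heterozygous (Wt1 ko/+) and 3 wild-type (Wt1 +/+) samples, hybridized to 1 array each. The product of Wt1 is a transcription factor with zinc fingers, and all females had been mated to wild-type males. The kind of knockout allele, the age of the females and whether a sample was 1 animal or a pool are not stated in the labels. The p-values therefore cover the variation among these 6 samples, part of which could be technical.

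Chaperones hold unfolded proteins and help them reach or regain their shape. HSP70 proteins work in a cycle with HSP40 partners, which deliver the client, and with HSP110 proteins, which exchange the nucleotide. HSP90 takes clients over through co-chaperones, small heat shock proteins hold unfolded chains without ATP, and the chaperonins HSP60 in mitochondria and CCT in the cytosol enclose a client in a chamber. In the heat shock response the factor HSF1 binds repeats of the unit GAA and its reverse TTC in the promoters of inducible genes. By textbook knowledge 15 members were classed as inducible, 19 as constitutive and 2 as regulators. Hspd1 and Hspe1 were placed among the constitutive members, and the classes themselves were not tested.

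The oviduct epithelium was represented as labelled: Ovgp1, the oviduct-specific glycoprotein of secretory cells, averaged 14.33 in heterozygous and 14.27 in wild-type oviducts on the log2 scale of normalized intensity. The median over all probe sets was 7.31 on that scale. Wt1 itself stood at 11.12, 11.27 and 11.79 in heterozygous arrays 1, 2 and 3, against 12.17, 12.06 and 11.67 in wild-type arrays 1, 2 and 3. Heterozygous array 3 thus lay above wild-type array 3 for Wt1 (log2 change -0.57, SE 0.23, limma adjusted p = 0.771), so the transcript did not separate the genotypes. Actb control probe sets at the 3' and 5' ends gave an intensity ratio, a sign of RNA quality, of 2.49, 1.67 and 1.71 in heterozygous arrays 1, 2 and 3, against 1.74, 2.40 and 5.90 in wild-type arrays 1, 2 and 3, so wild-type array 3 stood apart. Heterozygous array 1 and wild-type arrays 2 and 3 form the high-ratio set of 3 arrays, and the others the low-ratio set. Each set thus holds a single array of 1 of the genotypes, so differences within a set rest on that array. In whole tissue, fewer cells of a type and less RNA per cell cannot be told apart.

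Promoters of members are shown because they hold exact matches to motifs that HSF1 is known to recognize. Dnajb1, the member that differed most, is shown although it held no such match. The 250 bases before the annotated start were taken from RefSeq (GRCm38.p6), which held a window for 29 of the 36 genes. Capitals mark matches to GAANNTTC or TTCNNGAA, 2 adjoining units, or to GAANNTTCNNGAA, which holds 3 units and contains both shorter motifs; both strands were searched.
Hspa1a, chr17:34972157-34972406, minus strand: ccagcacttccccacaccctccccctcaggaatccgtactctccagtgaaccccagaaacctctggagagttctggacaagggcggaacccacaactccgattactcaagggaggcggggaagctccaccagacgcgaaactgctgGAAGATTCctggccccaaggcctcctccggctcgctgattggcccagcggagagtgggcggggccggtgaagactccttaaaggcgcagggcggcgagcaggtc
Hspa1b, chr17:34959239-34959488, minus strand: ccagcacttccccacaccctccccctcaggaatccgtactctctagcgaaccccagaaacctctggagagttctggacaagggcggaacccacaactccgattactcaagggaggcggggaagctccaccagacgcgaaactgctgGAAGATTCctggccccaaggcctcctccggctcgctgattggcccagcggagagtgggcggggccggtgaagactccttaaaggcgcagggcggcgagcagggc
Hsph1, chr5:149636337-149636586, minus strand: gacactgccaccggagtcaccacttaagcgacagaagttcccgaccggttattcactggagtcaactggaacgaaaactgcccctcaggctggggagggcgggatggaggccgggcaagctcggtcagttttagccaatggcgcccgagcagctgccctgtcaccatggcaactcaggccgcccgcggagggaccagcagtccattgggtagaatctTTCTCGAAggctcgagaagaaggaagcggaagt
Hspb1, chr5:135887669-135887918, plus strand: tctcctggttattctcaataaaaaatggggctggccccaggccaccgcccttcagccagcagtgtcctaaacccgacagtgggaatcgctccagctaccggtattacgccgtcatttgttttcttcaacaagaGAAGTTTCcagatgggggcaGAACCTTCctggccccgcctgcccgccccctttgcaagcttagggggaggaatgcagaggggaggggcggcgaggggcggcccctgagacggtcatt
Dnajb1, chr8:83607925-83608174, plus strand: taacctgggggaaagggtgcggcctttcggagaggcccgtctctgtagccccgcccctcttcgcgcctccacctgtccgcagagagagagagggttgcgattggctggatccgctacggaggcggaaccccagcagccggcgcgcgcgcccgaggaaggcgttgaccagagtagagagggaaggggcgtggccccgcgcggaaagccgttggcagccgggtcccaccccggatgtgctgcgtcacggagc
The windows of Hspa1a and Hspa1b differed at 3 of 250 bases (98.8% identical) and held the same match. A pair of further stretches of 30 bases are shown because they hold a match with 3 units.
Hspe1, which shares its promoter region with Hspd1, chr1:55088053-55088082, plus strand: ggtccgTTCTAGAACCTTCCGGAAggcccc
Dnajb6, chr5:29735843-29735872, plus strand: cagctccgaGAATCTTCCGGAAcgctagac
A match with 3 units was found for Hspd1, Hspe1 and Dnajb6, so for 3 of 29 members with a window, against 0.514% of 27025 genes. Hspd1 and Hspe1 share the same site, read on opposite strands, so it was counted for both genes. By class these were 3 of 15 constitutive members and 0 of 13 inducible members with a window. This split depends on the placement of Hspd1 and Hspe1 among the constitutive members, which was not tested. At least 1 match with 2 units was found for 6 of 13 inducible members and 6 of 15 constitutive members with a window, against 14.5% of all genes. The windows of Dnajb1, Chordc1 and Bag3, the inducible members described first below, held no exact match to these motifs. Units standing alone or at another spacing were not counted, and binding of HSF1 was not measured.

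No member passed the threshold, a Benjamini-Hochberg adjusted p under 0.05, between heterozygous and wild-type oviducts (limma, adjusted p of at least 0.610 for each of the 34 measured), whereas 3 of 18193 genes did (0.0165%). Of the 87 member probe sets 0 passed, whereas 3 of 45037 probe sets did (0.00666%). Most members nevertheless had the lower mean in heterozygous oviducts: 26 of 34, with a median log2 change of -0.09, against 55.0% of all genes and a median of -0.03. The count was 21 of 34 when a gene's probe sets were averaged and 22 of 34 without wild-type array 1. Of the 26 members 13 were inducible, 12 constitutive and 1 a regulator. Of the inducible members 13 of 15 were lower, by a median of -0.16 (10 of 15 with probe sets averaged). Of the constitutive members 12 of 18 were lower (14 of 18 with the deposited scaling, 10 of 18 with probe sets averaged), by a median of -0.02. The difference between the classes was not tested. The genotypes did not overlap in 5 members, where 11.8% of all genes had no overlap. Of these 4 were lower (Dnajb1, Chordc1, Bag3 and Hspa4), where 6.77% of all genes were lower in that way, and Hspb7 was higher. An unadjusted p under 0.05 was reached by 2 members, both lower, where 3.77% of all genes were lower at that level and 2.67% higher.

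**Figure D1:**
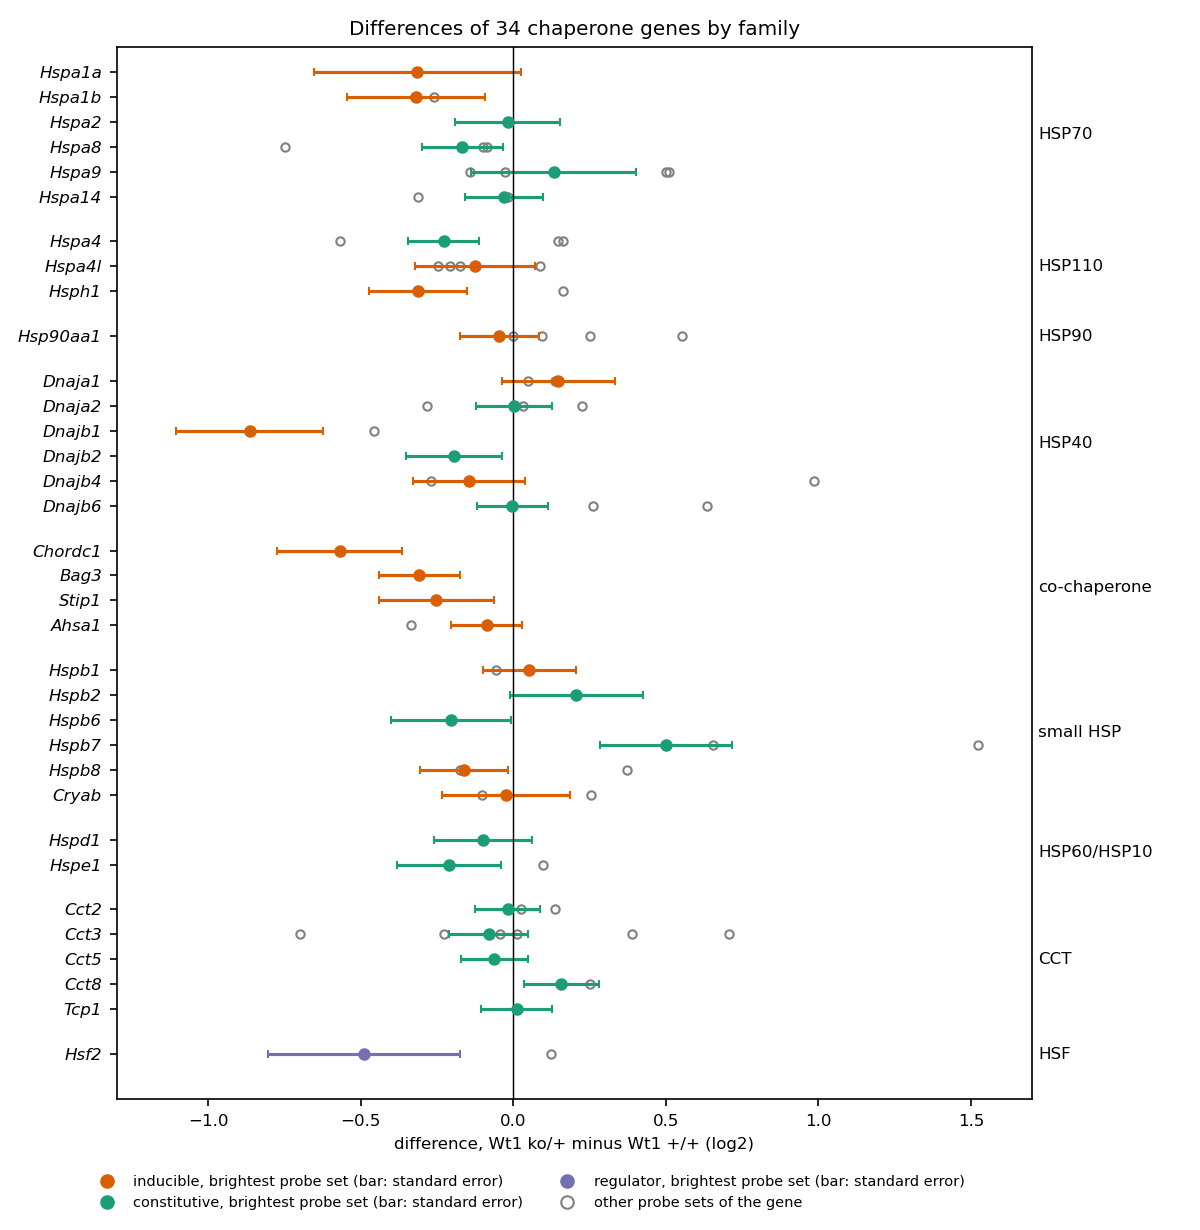
Each filled point is the log2 difference, heterozygous (ko/+) minus wild type (+/+), of 1 gene at its brightest probe set, with limma's standard error as a bar, and open points are the gene's other probe sets. Dnajb1 at -0.86 and Chordc1 at -0.57 lie farthest to the left among the filled points, Hspb7 at 0.50 farthest to the right, and the CCT subunits lie between -0.08 and 0.16.

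Among the HSP40 proteins, Dnajb1, the partner that HSP70 uses to take apart aggregates and a classical HSF1 target, differed most. Its level was 11.24, 11.42 and 12.07 in heterozygous arrays 1, 2 and 3, against 12.55, 12.29 and 12.49 in wild-type arrays 1, 2 and 3. All 3 heterozygous arrays lay below all 3 wild-type arrays, with heterozygous array 3 nearest to them. The mean was 1.82-fold lower in heterozygous oviducts (log2 change -0.86, SE 0.24), with limma p = 0.0114, adjusted p = 0.610 and an exact two-sided permutation p = 0.1, the smallest that 3 against 3 arrays allow. The deposited intensities were 2448, 2720 and 4188 in the heterozygous arrays and 5773, 4971 and 6121 in the wild-type arrays. The dimmer Dnajb1 probe set was also lower, by a log2 change of -0.46, with overlap. The brightest probe set gave -0.80 among the low-ratio arrays and -1.15 among the high-ratio arrays.

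The remaining HSP40 proteins did not share that difference. Dnaja1, a farnesylated HSP70 partner, was on average higher in heterozygous oviducts at all 3 of its probe sets, by log2 changes of 0.15, 0.05 and 0.14. Dnajb4, an inducible relative of Dnajb1, had a log2 change of -0.14 at its brightest probe set, and 0.99 (SE 0.82) and -0.27 at the dimmer ones. Dnaja2 at 0.0028 and Dnajb6 at -0.0027 lay at almost no difference at their brightest probe sets, and Dnajb2, a partner that hands clients to the proteasome, at -0.19 (SE 0.16). The next brightest Dnajb6 probe set was higher without overlap, by 0.26, and its dimmer ones gave 0.64 (SE 0.59) and -0.0070.

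All 4 co-chaperones had lower means in heterozygous oviducts. Chordc1, an HSP90 partner with zinc-binding CHORD domains, stood at 10.74, 10.98 and 11.44 in heterozygous arrays 1, 2 and 3, against 11.71, 11.48 and 11.67 in wild-type arrays 1, 2 and 3. The groups did not overlap, by a narrow margin between heterozygous array 3 and wild-type array 2. Chordc1 was 1.48-fold lower (log2 change -0.57, SE 0.21, limma p = 0.0327, adjusted p = 0.729, exact permutation p = 0.1). Bag3, which links HSP70 to autophagy and to small heat shock proteins, stood at 10.65, 10.70 and 10.57 in the heterozygous arrays and at 10.99, 11.09 and 10.76 in the wild-type arrays. Its heterozygous arrays lay close together and all below the wild-type ones (log2 change -0.31, SE 0.13, limma adjusted p = 0.803). For Bag3 heterozygous array 3 was the lowest of the 6, unlike for Dnajb1 and Chordc1. Stip1, which joins HSP70 to HSP90, gave -0.25 (SE 0.19), and Ahsa1, which stimulates the ATPase of HSP90, gave -0.09 and, at its dim probe set, -0.33.

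**Figure D2:**
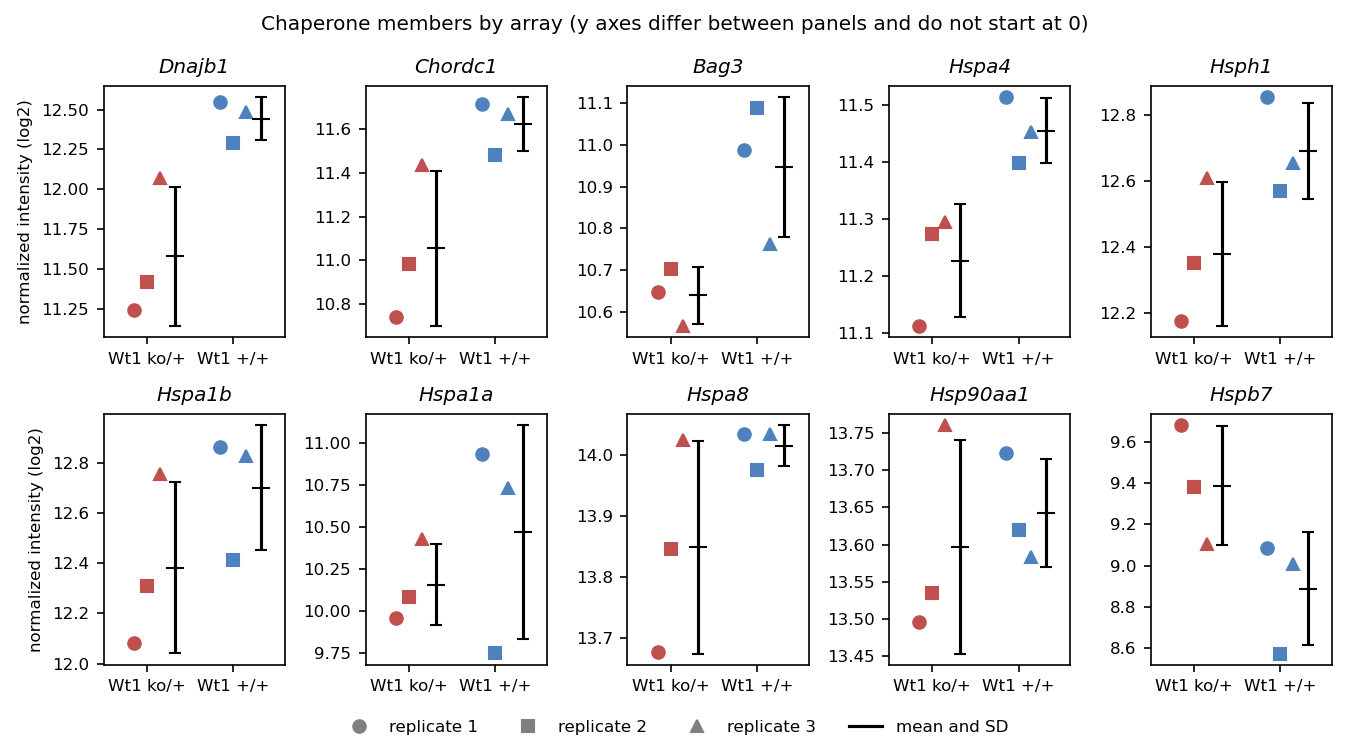
Points are the normalized log2 intensities of 10 members in the 3 heterozygous (ko/+) and 3 wild-type (+/+) arrays, and bars are the mean and SD of 3. Heterozygous array 3, the red triangle, is the highest of its group for 8 of the 10 genes shown, all but Bag3 and Hspb7.

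The stress-induced HSP70 genes varied within both genotypes. Hspa1b was at 12.08, 12.31 and 12.75 in heterozygous arrays 1, 2 and 3, against 12.86, 12.41 and 12.83 in wild-type arrays 1, 2 and 3. Heterozygous array 3 lay above wild-type array 2, so the groups overlapped (log2 change -0.32, SE 0.23, limma adjusted p = 0.889). Its other probe sets gave -0.32 and -0.26. Hspa1a was at 9.96, 10.08 and 10.43 in the heterozygous arrays, against 10.94, 9.75 and 10.73 in the wild-type arrays, where array 2 was the lowest of all 6. Its log2 change of -0.31 had an SE of 0.34, as large as the change itself (limma adjusted p = 0.925). The Hspa1a value was -0.08 without wild-type array 1, -0.68 without wild-type array 2, -0.18 without wild-type array 3 and 0.10 with array weights. Both genes are near-identical neighbours, so signal of either gene at probes for the other cannot be separated here.

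The constitutive HSP70 proteins differed less. Hspa8, the main cytosolic HSP70 of unstressed cells, was at 13.68, 13.85 and 14.02 in the heterozygous arrays and 14.03, 13.98 and 14.03 in the wild-type arrays. Only heterozygous arrays 1 and 2 lay below the wild-type range (log2 change -0.17, SE 0.13, limma adjusted p = 0.896). The 2 next brightest Hspa8 probe sets gave -0.09 and -0.10, and a dim one -0.75 without overlap between the genotypes. Hspa2, an HSP70 best known from spermatogenesis, gave -0.02 and Hspa14, which acts at the ribosome, -0.03. Hspa9, the mitochondrial HSP70, gave 0.13 (SE 0.27), with wild-type array 3 the lowest at 10.54 and the other wild-type arrays at 11.48 and 11.24.

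All 3 HSP110 proteins had lower means. Hspa4 was at 11.11, 11.27 and 11.29 in heterozygous arrays 1, 2 and 3, against 11.51, 11.40 and 11.45 in wild-type arrays 1, 2 and 3. The groups did not overlap (log2 change -0.23, SE 0.12, limma adjusted p = 0.834), but its 2 next brightest probe sets were higher, by 0.16 and 0.15. Hsph1, the most inducible HSP110 protein, was at 12.18, 12.35 and 12.61 in the heterozygous arrays and 12.85, 12.57 and 12.65 in the wild-type arrays. Heterozygous array 3 reached into the wild-type range (log2 change -0.31, SE 0.16, limma adjusted p = 0.839), and the other Hsph1 probe set gave 0.16 (SE 0.40). Hspa4l gave -0.12 (SE 0.20), with values from -0.25 to 0.09 at its other probe sets.

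Hsp90aa1, the inducible HSP90, was at 13.49, 13.53 and 13.76 in the heterozygous arrays, against 13.72, 13.62 and 13.58 in the wild-type arrays. Heterozygous array 3 was the highest of all 6, and the means differed by -0.05 (SE 0.13, limma adjusted p = 0.965). The other probe sets of Hsp90aa1 gave 0.55 (SE 0.63), 0.09, 0.25 and, for the dimmest, -4.4e-04.

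The small heat shock proteins did not share a direction. Hspb7, a heart and muscle protein that binds filamin, was the 1 member that was higher without overlap. It was at 9.68, 9.38 and 9.10 in heterozygous arrays 1, 2 and 3, against 9.08, 8.57 and 9.01 in wild-type arrays 1, 2 and 3. The mean was 1.41-fold higher in heterozygous oviducts (log2 change 0.50, SE 0.22, limma p = 0.0594, adjusted p = 0.798, exact permutation p = 0.1), and heterozygous array 3 exceeded wild-type array 1 by a narrow margin. Its other probe sets were higher as well, by 0.66 without overlap and by 1.52 (SE 0.85). The Hspb7 value was 0.16 among the low-ratio arrays and 0.89 among the high-ratio arrays. Hspb2, encoded next to Cryab and likewise found in muscle, gave 0.21 (SE 0.22), and Hspb6, abundant in smooth muscle, -0.20 (SE 0.20). Hspb1, an actin-associated and inducible protein, gave 0.05, and Cryab, the lens and muscle crystallin, gave -0.02. The next brightest Cryab probe set was higher without overlap, by 0.25. Hspb8, which works in a complex with Bag3, gave -0.16 (SE 0.14) at its brightest probe set. Its next brightest one gave 0.37 (SE 0.34) and the dimmest -0.18.

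Smooth muscle markers were on average higher where Hspb7 was. Of 16 smooth muscle markers 14 had higher means in heterozygous oviducts, by a median log2 change of 0.45, and 0 passed over all genes. Actg2, smooth muscle gamma actin, was at 11.36, 11.91 and 11.06 in the heterozygous arrays, against 10.45, 10.63 and 10.72 in the wild-type arrays. Synm, the marker of smallest p in this list, went the other way without overlap. It was at 9.66, 9.44 and 8.91 in the heterozygous arrays, against 10.14, 10.03 and 10.19 in the wild-type arrays. Its log2 change was -0.78 (SE 0.21, limma adjusted p = 0.607). The score of the smooth muscle list, the mean of its genes' levels after subtracting each gene's mean over the 6 arrays, was 0.23, 0.47 and -0.07 in heterozygous arrays 1, 2 and 3, against -0.28, -0.31 and -0.05 in wild-type arrays 1, 2 and 3. The score of the 6 small heat shock proteins was 0.21, 0.02 and -0.14 in the heterozygous arrays and -0.13, -0.08 and 0.12 in the wild-type arrays. The part of muscle in the Hspb7 result was not tested.

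The CCT subunits differed little between the genotypes. The 5 CCT members, subunits of the ring that folds actin and tubulin, ranged from -0.08 for Cct3 to 0.16 for Cct8, with Cct2 at -0.02, Cct5 at -0.06 and Tcp1 at 0.01. Of these, 3 were lower and 2 higher, and the SDs within genotypes lay between 0.04 for Cct2 and 0.12 for Cct3, against a median of 0.18 over all members. A dimmer Cct3 probe set gave -0.23 without overlap. The mitochondrial pair Hspd1 (HSP60) and Hspe1 (HSP10), which share a promoter region, gave -0.10 (SE 0.16) and -0.21 (SE 0.17). The Hspe1 value comes from a probe set marked as cross-hybridizing, and the direction turned at its other probe set, which gave 0.10. The brightest probe sets of Hspa8, Cct2 and Dnaja2 are marked in the same way. Without marked probe sets Cct2 gave 0.02 and Dnaja2 0.23, and the brightest unmarked Hspa8 probe set gave -0.10. At its brightest probe set Hspe1 was at 12.00, 12.00 and 12.02 in the heterozygous arrays, against 12.47, 12.27 and 11.91 in the wild-type arrays. There the wild-type arrays varied far more. At the other Hspe1 probe set both groups varied, with 10.77, 11.13 and 11.31 in the heterozygous and 11.23, 10.93 and 10.75 in the wild-type arrays. Hspd1 likewise was lowest in wild-type array 3, at 12.02, against 12.47 and 12.33 in the other wild-type arrays. Of the regulators, Hsf2 was dim, at 7.33, 6.53 and 6.60 in the heterozygous arrays and 6.91, 7.24 and 7.78 in the wild-type arrays, with a log2 change of -0.49 (SE 0.31).

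The levels of most inducible members, though not of the small heat shock proteins Hspb1 and Hspb8, varied together between arrays of 1 genotype. Of the 12 inducible members other than small heat shock proteins, 12 lay above their own mean over the 6 arrays in wild-type array 1, 8 in wild-type array 2 and 7 in wild-type array 3. In the heterozygous arrays the counts were 1, 1 and 10 for arrays 1, 2 and 3. Their score was -0.29, -0.20 and 0.09 in heterozygous arrays 1, 2 and 3, against 0.31, 0.01 and 0.07 in wild-type arrays 1, 2 and 3, so the groups overlapped through heterozygous array 3. Within the heterozygous group, array 3 was the highest for 11 of these 12 genes, against 36.0% of the 11954 genes above the median of all probe sets, and by a median of 0.31 over the mean of arrays 1 and 2. This array was singled out after its values were seen, and it is also the heterozygous array with the highest Wt1 level. Within the wild-type group, array 1 was the highest for 9 of the 12, against 31.1% of the same genes. Over all 15 inducible members, heterozygous array 3 was the highest of its group for 12 and wild-type array 1 for 9. Hspb1 and Hspb8 went the other way, each lowest of its group in these arrays. The constitutive members shared the pattern: of all 18, heterozygous array 3 was the highest of its group for 10 and wild-type array 1 for 11.

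The constitutive members followed less far. Without small heat shock proteins, the score of 15 genes was -0.06, -0.07 and 0.05 in heterozygous arrays 1, 2 and 3, against 0.10, 0.06 and -0.08 in wild-type arrays 1, 2 and 3. The median SD within genotypes was 0.12 for the 18 constitutive members and 0.23 for the 15 inducible ones, against 0.19 for the genes above the median of all probe sets.

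**Figure D3:**
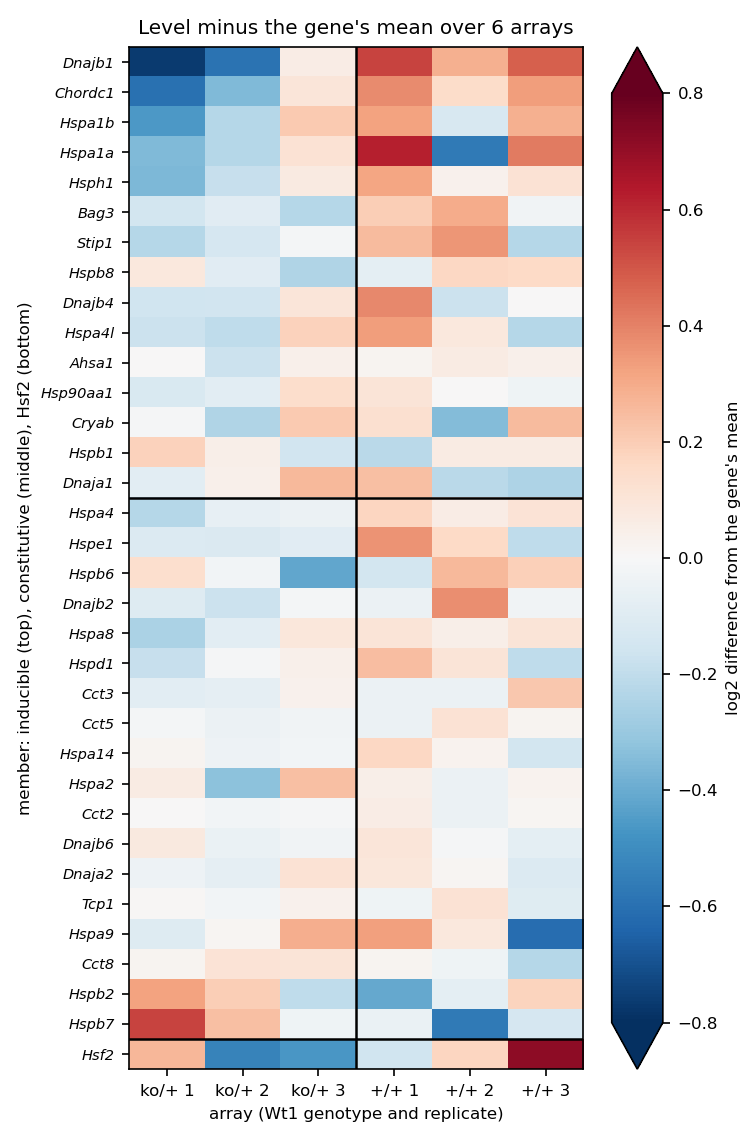
Each row is a member and each column an array, heterozygous (ko/+) left of wild type (+/+); colours give the log2 level minus the gene's mean over the 6 arrays. In the upper block of 15 inducible members, heterozygous arrays 1 and 2 are mostly blue, with 3 and 2 genes above their mean, and wild-type array 1 is mostly red, with 13.

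RNA quality and early stress genes were set beside these scores. The heterozygous minus wild-type difference of the score of the 15 inducible members was -0.22 over all arrays, -0.30 among the low-ratio arrays and -0.26 among the high-ratio arrays. The low-ratio value rests on wild-type array 1 alone for its genotype, and the high-ratio value on heterozygous array 1 alone. These arrays had the highest and the lowest inducible score, 0.24 and -0.21. Neither value can therefore show whether the difference holds at like RNA quality, and this was not tested. Without wild-type array 3, which had the highest ratio, 12 of 15 inducible members were lower, by a median of -0.18. Without heterozygous array 3, 13 of 15 were lower, by a median of -0.25, and Dnajb1 stood at -1.11. Without wild-type array 1, 11 of 15 were lower, by a median of -0.10. Immediate early genes, which respond within minutes to handling and signals, had a score of 0.43, -0.22 and -0.16 in heterozygous arrays 1, 2 and 3, against -0.03, 0.03 and -0.06 in wild-type arrays 1, 2 and 3. Heterozygous array 1 was thus high for immediate early genes and low for inducible chaperones. Of the 22 immediate early genes 13 had higher means in heterozygous oviducts, with a median log2 change of 0.04. Ier5, a stress gene known to act on HSF1, was at 10.07, 9.97 and 10.05 in the heterozygous arrays, against 10.28, 10.43 and 10.42 in the wild-type arrays (log2 change -0.35, SE 0.11, limma adjusted p = 0.681, and of the opposite sign under 1 of 16 alternatives).

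**Figure D4:**
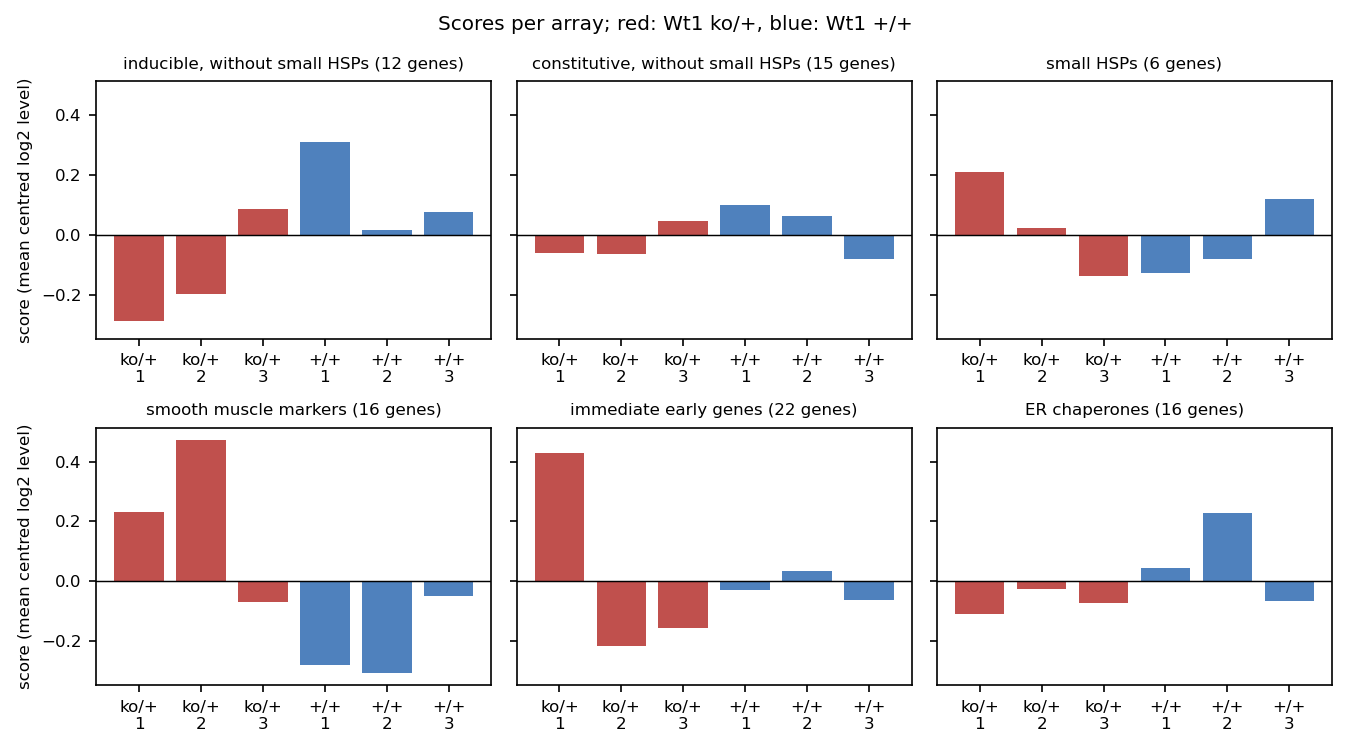
Bars are the scores per array, the mean over a list's genes of the log2 level minus each gene's mean over the 6 arrays, with heterozygous arrays in red and wild-type arrays in blue. The score of the 12 inducible members other than small heat shock proteins is lowest in heterozygous arrays 1 and 2, at -0.29 and -0.20, the smooth muscle score is highest there, at 0.23 and 0.47, and the immediate early score is highest in heterozygous array 1, at 0.43.

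Ciliated cells, a main cell type of the oviduct, were measured by 10 markers, of which 7 had lower means in heterozygous oviducts, by a median of -0.12. Their score was 0.21, -0.07 and -0.03 in heterozygous arrays 1, 2 and 3, against 0.26, -0.10 and -0.27 in wild-type arrays 1, 2 and 3, and did not separate the genotypes. Single markers weighed on it: Spag6, near the floor, was listed at 3.96, 3.34 and 1.59 in the heterozygous arrays and 3.80, 0 and 1.56 in the wild-type arrays, and Dnah5 was at 6.78 in wild-type array 3 against at least 8.89 elsewhere. In wild-type array 2, 9 of the 10 markers lay above their own mean although the score was negative. Foxj1, the master factor of motile cilia, was lower in all 3 heterozygous arrays, with a log2 change of -0.31 (SE 0.13, limma adjusted p = 0.782). Secretory and mesothelial markers overlapped in score as well, with 7 of 10 and 4 of 6 higher. The mesothelial list includes Wt1 itself, at -0.57, the gene that defines the groups. Its score without Wt1 was not computed.

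Most markers of other cell types in the tissue had higher means in heterozygous oviducts, and 4 of these lists had scores without overlap between the genotypes. Of the endothelial markers 11 of 12 were higher, by a median of 0.20, with scores of 0.15, 0.22 and 0.04 in heterozygous arrays 1, 2 and 3, against -0.13, -0.23 and -0.04 in wild-type arrays 1, 2 and 3. Of the stromal markers 9 of 10 were higher, by a median of 0.17, with scores of 0.12, 0.29 and 0.03 in the heterozygous arrays, against -0.10, -0.25 and -0.09 in the wild-type arrays. Of the fat markers 7 of 8 were higher, by a median of 0.75, with scores of 0.25, 0.76 and 0.37 in the heterozygous arrays, against -0.16, -0.76 and -0.47 in the wild-type arrays. The fat marker Adipoq, which encodes adiponectin, averaged 7.14 in heterozygous and 5.06 in wild-type oviducts, both means being under the overall median of 7.31. Of the leukocyte markers 8 of 11 were higher, by a median of 0.16, with scores of 0.30, 0.82 and 0.26 in the heterozygous arrays, against -0.52, -0.88 and 0.01 in the wild-type arrays. S100a8, a calcium-binding protein of neutrophils, was at 9.14, 11.33 and 10.45 in heterozygous arrays 1, 2 and 3, against 5.13, 5.22 and 7.84 in wild-type arrays 1, 2 and 3 (log2 change 4.24, SE 0.90, limma adjusted p = 0.503), and its partner S100a9 gave 3.76. Single markers weighed on these scores too. Apart from S100a8 and S100a9, the leukocyte markers ranged from -0.53 for Cd3e to 1.36 for Itgam, with Csf1r at 0.07. The fat markers ranged from -0.03 for Lep to 2.22 for Car3. Their median lies between Plin4 at 0.24 and Cidec at 1.26 (SE 1.15), and Cidec was near the floor. Lep and Pck1 also averaged under the overall median in both genotypes. Scores without single markers were not computed. Adipoq, S100a8 and S100a9 were picked with their values in view, and no marker of these 4 lists passed over all genes. The part of cell composition in the chaperone values was not tested.

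Other genes of the folding network did not share a direction, and 0 of their 71 measured genes passed over all genes. Of 21 further HSP70 and HSP90 partners, 11 were higher and 10 lower, with a median of 0.03. Among them Bag5, a nucleotide exchange factor of HSP70, was higher by 0.27 and Unc45b, a myosin chaperone of muscle, by 0.37, both without overlap (limma adjusted p = 0.794 and 0.776). Of 13 other J proteins, 11 were lower, by a median of -0.06, with the dim Dnajb3 at -0.42 and Dnajc7 at 0.22. Of 10 remaining CCT and prefoldin subunits 6 were higher. Cct4 at -0.21 and Cct7 at -0.15 were lower without overlap (limma adjusted p = 0.847 and 0.889), whereas the 5 member subunits overlapped at their brightest probe sets. Of 11 other mitochondrial chaperones and proteases, 8 were higher, by a median of 0.04, with the protease Clpp at 0.23 and the HSP90 relative Trap1 at -0.37.

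In the endoplasmic reticulum, 10 of 16 chaperone and stress genes were lower, by a median of -0.05. The 3 of smallest p were all lower without overlap. Ddit3, a factor induced by unfolded protein stress, was at 9.17, 9.37 and 9.62 in heterozygous arrays 1, 2 and 3, against 9.93, 10.19 and 10.16 in wild-type arrays 1, 2 and 3 (log2 change -0.70, SE 0.16, limma adjusted p = 0.503). Herpud1, of endoplasmic reticulum degradation, was at 11.29, 11.48 and 12.04 in the heterozygous arrays and 12.58, 12.50 and 12.14 in the wild-type arrays (log2 change -0.81, SE 0.24, limma adjusted p = 0.631). In both genes heterozygous array 3 was the highest of its group, as it was for Dnajb1 and Chordc1. Hyou1, the HSP110 protein of that compartment, gave -0.36 (SE 0.14, limma adjusted p = 0.748), and the opposite sign under 1 of 16 alternatives.

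Agreement between probe sets set a limit on single members. Of the 23 members with several probe sets, 5 were lower at all of them, 3 were higher at all and 15 had both signs. Some opposite signs came with low values in wild-type array 3, which had the highest Actb ratio. The Hsp90aa1 probe set at 0.55 read 11.02 there, against 13.38 and 12.86 in wild-type arrays 1 and 2. The Hsph1 one at 0.16 read 10.56, against 11.97 and 11.78. By contrast the Hspa4 probe set at 0.16 read 10.20, 10.21 and 10.19 in wild-type arrays 1, 2 and 3. The part of RNA quality in these signs was not tested. Of the 74 member probe sets above the median of all probe sets 45 were lower, and of all 87 member probe sets 51. Of all genes, at 1 probe set each, 55.0% were lower, so the excess of lower values was smaller by probe set than by gene. The share over all probe sets was not computed. The lower mean of Dnajb1 was shared by both of its probe sets and that of Hspa1b by all 3, whereas Chordc1 and Bag3 had 1 probe set each.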

How the data were processed

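Oviduct RNA from 3 Wt1 heterozygous and 3 wild-type samples was hybridized as biotin-labelled cRNA, 1 array per sample, per the labels' protocols. Per probe set and array the authors deposited an intensity on a linear scale; the summarising program and the genome build are not given in the sources used here. The mean intensity after trimming 2% at each end was 500.002 in every array, so the values had been scaled. After removal of 64 control probe sets, intensities under 1 were set to 1, log2 transformed and quantile normalized, because the medians of the arrays spanned 0.147 in log2.

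Platform annotation gave 34945 probe sets 1 symbol, 932 several and 9160 none. Differences, heterozygous minus wild type, were fitted over all genes with limma 3.58.1 in R 4.3.3 (two-sided, Benjamini-Hochberg, threshold 0.05). SE is limma's moderated standard error. Members, classes and lists were chosen with earlier results of these data known. Members were given per array where the groups did not overlap, an unadjusted p was under 0.05 or the log2 change was at least 0.5 in size, if the larger group mean exceeded the median over all probe sets; Hspa1a, Hspa1b, Hsp90aa1, Hspa8 and Dnajb1 were always given, and others, such as Hsph1, Hspe1 and Hsf2, were chosen after their values were seen. Of each other folding list at most 3 genes of smallest p were named. No detection calls were used, so the number of arrays and unknown background limit precision. In simulated data on 18193 genes the fit recovered 20% of genes shifted by 1 and 58% of those shifted by 2 on the log2 scale, with 1 false call. Deviations of same-numbered arrays correlated at -0.10, -0.03 and -0.08 across genes. Differently numbered arrays were not compared, so these values cannot show whether the numbers pair the samples. The main fit treated the samples as unpaired.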

Additional observations from a re-analysis of the deposited data

How the results depend on the processing

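No member passed the threshold under any of 16 alternatives; the smallest adjusted p of a member was 0.245, for Dnajb1 with array weights, and 2 members had an unadjusted p under 0.05 in the fit reported. Of the 34 members 18 kept their sign under every alternative that could be run for them, among them Dnajb1 (-1.11 to -0.66), Chordc1 (-0.76 to -0.41), Bag3 (-0.40 to -0.24) and Hspb7 (0.34 to 0.89), and 16 changed it at least once. When a gene's probe sets were averaged, 10 of 15 inducible members were lower instead of 13. The inducible median was -0.30 with the Actb ratio of 3' to 5' probe sets as covariate, against -0.16, and ranged from -0.25 to -0.10 when arrays were left out; the cause was not tested. The constitutive median ranged from -0.06 to -0.0015 and that of all members from -0.13 to -0.06 in those fits. Over all genes, 3 passed; the count was 1 after dim probe sets were filtered out, 1 with eBayes using trend and robust, 7 with array weights, and 0 without cross-hybridizing probe sets. It was 0 with that ratio as covariate or as block, and 0 without any 1 array, with 843 to 1907 genes at an unadjusted limma p under 0.05. Of the probe sets 3 passed, against 14 with array weights, 1 with log2 of the intensity plus 16, 0 with either use of the ratio, and 0 to 1 without 1 array. With the replicate block, 0 genes and 0 probe sets passed, and no member's call changed.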
